A study of Arabidopsis thaliana with 9 samples.

Results

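The genes described here build, modify or loosen the plant cell wall, and were measured in whole seedlings of Arabidopsis thaliana, accession Landsberg erecta (Ler), on Affymetrix arrays. They were chosen by name. A gene was a member if its symbol or a listed synonym was an expansin (EXPA, EXPB), cellulose synthase (CESA), cellulose synthase-like (CSLA to CSLG), GH9 endoglucanase, AGP, FLA, TBL, PME, GAUT, GATL, IRX, EXT, PRP or LRX name with a number. XTH genes, EXLA1, EXLA2 and EXO were not included. Each member had at least 1 probe set annotated to that gene alone, and for a gene with several, the one brightest on average over the 9 arrays was used. The rule found 69 genes among 13356 named genes. There were 10 EXPA, 4 EXPB, 2 CSLA, 5 CSLC, 1 CSLD, 15 GH9, 3 PME, 1 GAUT, 3 IRX, 23 TBL and 2 PRP names. No CESA, AGP, FLA, GATL, EXT or LRX gene was named by these probe sets, so cellulose synthases and arabinogalactan proteins were not analysed here. Both PRP members, PRP39 and PRP39-2, encode splicing factors rather than proline-rich wall proteins, so 67 members are wall genes.

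Seedlings were wild type Ler, or carried the ebs or the shl-2 mutation in the same accession. The mutations lie in EBS and SHL, genes for related chromatin-reading proteins that restrain flowering, and the series design describes both mutants as lacking expression of the affected gene. Each genotype was represented by 3 biological samples labelled as pools. Plants were 18 days old, had been raised on solid MS medium with 8 h light and 16 h darkness per day, and received no further treatment. One mutant line was used for each gene, so effects of the line and of the gene cannot be told apart.

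The growing plant cell wall is a network of cellulose microfibrils, hemicelluloses such as xyloglucan and mannan, and pectin. Cellulose is made at the plasma membrane, whereas hemicelluloses and pectin are made in the Golgi, where acetyl groups are added to them. Expansins loosen the contacts between wall polymers during growth, endoglucanases cut glucan chains, and pectin methylesterases remove methyl groups from pectin, which changes its charge and stiffness. In seedlings these proteins help to set how fast and in which direction cells expand.

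Values are log2 signals after RMA normalization, and a difference of 1 is a 2-fold change. Median log2 signals lay between 6.06 and 6.12 on the 9 arrays, and across probe sets arrays of different genotypes correlated with r = 0.988 to 0.995. The number of arrays limits the precision of all values. The SHL probe set, named SHL1, read 7.88, 8.02 and 7.88 in wild type and 7.46, 6.91 and 6.52 in shl-2. It fell by 0.96 on the log2 scale (SE 0.19, limma adjusted p = 0.0182). The shl-2 signals still lay above the array medians, so this probe set does not by itself show the lack of expression that the design describes. EBS itself was not analysed here. The 3 measured leaf genes, LHCB4.1, RCA and PSAN, had mean signals between 13.6 and 14.4 in wild type and none passed the test in any comparison. RCA read 14.34 on every ebs and shl-2 array, so its probe set may be too bright to show a change. The root beta-glucosidase gene PYK10 read 12.1 to 12.2 in wild type. The measured pollen markers were EXPB5, itself a member, and ACT12, whose signals of 3.24 to 3.38 lay below the lower quartile of all probe sets. No flower or seed marker was named by these probe sets. In whole seedlings, fewer cells of a type and less RNA per cell cannot be told apart.

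In ebs, 5 of the 69 members passed limma's test against wild type with Benjamini-Hochberg adjustment over all 22746 probe sets at a threshold of 0.05. Of these, 3 rose and 2 fell. That is 7.25% of members, beside 3.19% of all probe sets (1.72% higher and 1.47% lower) and 2.82% of named genes with 1 probe set each. In shl-2, 9 members passed, of which 3 rose and 6 fell, or 13.0% beside 5.43% of all probe sets (2.44% higher and 2.99% lower) and 4.44% of named genes. Both mutants were compared with the same wild type arrays. The pectin methylesterase gene PME41, the mannan synthase gene CSLA03, the glucan synthase gene CSLC5 and the endoglucanase gene GH9C2 passed in both mutants, in the same direction in each. CSLC04, TBL15 and the expansin genes EXPA8, EXPA9 and EXPB3 passed in shl-2, and TBL36 passed in ebs. No member passed between the mutants, beside 0.769% of all probe sets (0.268% higher and 0.501% lower in shl-2) and 0.629% of named genes.

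The members as a whole showed no common direction. In ebs, 34 log2 fold changes were above 0 and 33 below it, beside 43.2% above 0 over all probe sets, and the members' median was 0.0 beside -0.02. In shl-2, 29 were above 0 and 39 below it, beside 41.7% above 0, and the median was -0.02 beside -0.03. Changes smaller than 0.3 on the log2 scale were found for 54 of 69 members in ebs, beside 20029 of all 22746 probe sets. In shl-2 they were found for 52 members, beside 19759 probe sets. Arrays did not overlap between ebs and wild type for 15 members (10 higher, 5 lower), or 21.7%, beside 19.9% of all probe sets (7.34% higher, 12.6% lower). Between shl-2 and wild type this held for 12 members (5 higher, 7 lower), or 17.4%, beside 20.5% (7.94% higher, 12.6% lower). The median pooled SD within genotypes was 0.13 for members and 0.12 for all probe sets. In fits that left out 1 array, the count of members for ebs dropped to 1 (GH9C2) when that array was wild type 2 or ebs 1. It dropped to 3 when that array was ebs 3, wild type 3, shl-2 1 or shl-2 2. All probe sets that passed in ebs also dropped, from 726 to 265, 264, 306, 416, 569 and 575 in these fits, in this order. For shl-2 the count of members dropped to 4 when the omitted array was wild type 2 or shl-2 1, and to 5 when it was wild type 3. All probe sets that passed in shl-2 dropped from 1235 to 677, 838 and 803 in these fits.

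**Figure D1:**
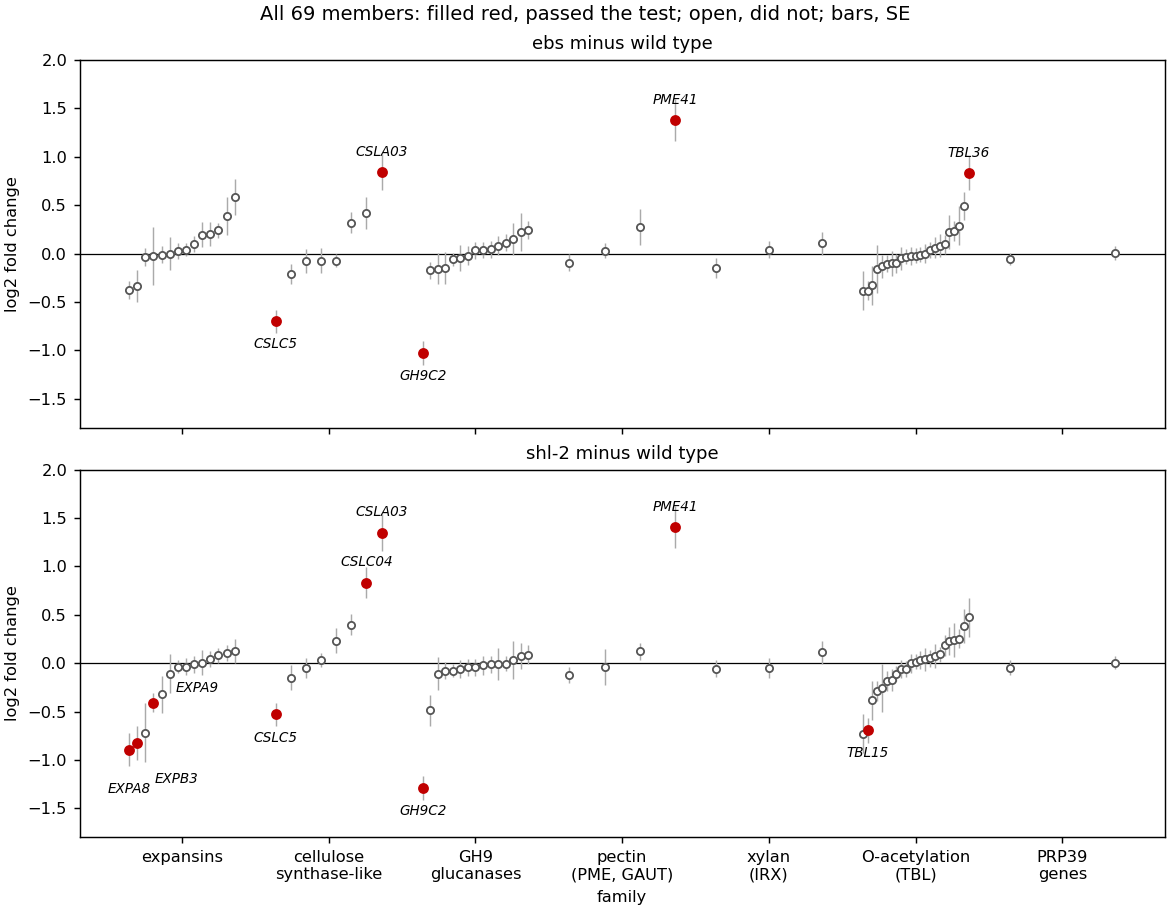
The log2 fold change of each of the 69 members is plotted by family, for ebs against wild type above and shl-2 against wild type below. Red points passed the adjusted test, open points did not, and bars are limma standard errors. In ebs the red points run from -1.03 (GH9C2) to 1.38 (PME41) and in shl-2 from -1.29 (GH9C2) to 1.41 (PME41).

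GH9C2 (AT1G64390) encodes a secreted family 9 endoglucanase, of the class that carries an additional carbohydrate-binding module. Its log2 signals were 8.51, 8.78 and 8.67 in wild type, 7.4, 7.86 and 7.62 in the ebs mutant, and 7.32, 7.51 and 7.26 in the shl-2 mutant. All 6 mutant arrays lay below all 3 wild type arrays, whereas the mutants overlapped each other. GH9C2 fell by 1.03 on the log2 scale in ebs (SE 0.12, limma adjusted p = 0.00257) and by 1.29 in shl-2 (SE 0.12, adjusted p = 0.000433), which is 2.04-fold and 2.45-fold. Both calls held whichever of the 9 arrays was left out, with a highest adjusted p of 0.0166 in ebs and 0.00392 in shl-2.

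None of the other 14 GH9 genes passed in either mutant, beside 3.19% of all probe sets in ebs and 5.43% in shl-2. The log2 fold changes of these 14 genes ran from -0.17 to 0.24 in ebs and from -0.49 to 0.09 in shl-2. GH9B7 had the brightest probe set of the family and read 9.53, 9.53 and 9.72 in wild type, 9.27, 9.56 and 9.43 in the ebs mutant, and 9.59, 9.54 and 9.52 in the shl-2 mutant, with all groups overlapping. The lowest value among the 14 in shl-2 was that of GH9B8 at -0.49 (adjusted p = 0.119), which passed without shl-2 array 3 (adjusted p = 0.0238). GH9A3, also named KOR3, belongs to the membrane-anchored class related to the cellulose-synthesis enzyme KORRIGAN. GH9A3 read 4.83 to 4.89 in wild type and 4.99 to 5.32 in ebs without overlap, but its difference of 0.24 did not pass (adjusted p = 0.227). The remaining probe sets include 5 GH9 genes with mean signals below 3.86, the lower quartile of all probe sets.

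PME41 (AT4G02330, symbol ATPMEPCRB) encodes a pectin methylesterase. Its log2 signals were 5.7, 5.22 and 4.93 in wild type, 6.91, 6.7 and 6.37 in the ebs mutant, and 6.82, 6.33 and 6.93 in the shl-2 mutant. All mutant arrays lay above all wild type arrays, and the mutants covered nearly the same range. PME41 rose by 1.38 on the log2 scale in ebs (SE 0.22, limma adjusted p = 0.00968), or 2.60-fold, and by 1.41 in shl-2 (SE 0.22, adjusted p = 0.00504), or 2.66-fold. The ebs call was lost without ebs array 1 or wild type array 2 (highest adjusted p = 0.0512), and the shl-2 call held in every such fit.

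PME41 lies in a stretch of chromosome 4 that holds 2 further members in the RefSeq annotation of TAIR10.1. GH9B13 (AT4G02290) and PME39 (AT4G02300) are direct neighbours, and 2 protein-coding genes separate PME39 from PME41. GH9B13 had log2 fold changes of 0.23 in ebs and 0.03 in shl-2 (adjusted p = 0.627 and 0.961), and PME39 had 0.03 and -0.12 (adjusted p = 0.898 and 0.479). Neither passed, and PME39 had signals of 3.51 to 3.82 on all arrays. The third pectin methylesterase, PME61, had log2 fold changes of 0.27 in ebs and -0.04 in shl-2. GAUT15, of the galacturonosyltransferase family that makes the pectin backbone, read 6.57 to 6.85 in wild type, 6.55 to 6.65 in ebs and 6.72 to 6.91 in shl-2 and passed nowhere.

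The 8 cellulose synthase-like genes held members that moved in opposite directions. CSLA03 (AT1G23480) belongs to the family of mannan synthases. It read 8.06, 7.46 and 7.26 in wild type, 8.44, 8.43 and 8.44 in the ebs mutant, and 8.9, 8.7 and 9.23 in the shl-2 mutant. The 3 genotypes did not overlap, with wild type lowest and shl-2 highest. CSLA03 rose by 0.84 on the log2 scale in ebs (SE 0.19, limma adjusted p = 0.0455) and by 1.35 in shl-2 (SE 0.19, adjusted p = 0.00318), or 1.79-fold and 2.55-fold. The difference between the mutants was 0.51 (95% interval 0.08 to 0.93, adjusted p = 0.356). The shl-2 call held in all leave-one-out fits. The ebs call held in only 2 of the 9 leave-one-out fits, those omitting wild type 1 or shl-2 3 (highest adjusted p = 0.158 in the other fits), and it was lost when the shl-2 arrays were kept out of the fit (adjusted p = 0.0667). The other CSLA member, CSLA01, had log2 fold changes of -0.07 and -0.15 and did not pass.

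The 5 CSLC genes encode glucan synthases that make the backbone of xyloglucan, the main hemicellulose of growing walls in this species. CSLC04 (AT3G28180) read 8.49, 8.27 and 7.97 in wild type, 8.63, 8.57 and 8.79 in the ebs mutant, and 8.91, 8.9 and 9.42 in the shl-2 mutant, again without overlap between genotypes. It rose by 0.83 on the log2 scale in shl-2 (SE 0.16, limma adjusted p = 0.0154), or 1.78-fold, and had a value of 0.42 in ebs (adjusted p = 0.22). The shl-2 call was lost without wild type arrays 2 or 3 (highest adjusted p = 0.0581). CSLC5 (AT4G31590) went the other way, with signals of 7.15, 7.25 and 7.25 in wild type, 6.37, 6.75 and 6.43 in the ebs mutant, and 6.56, 6.89 and 6.61 in the shl-2 mutant. Every mutant array lay below every wild type array. CSLC5 fell by 0.70 on the log2 scale in ebs (SE 0.12, adjusted p = 0.0129) and by 0.53 in shl-2 (SE 0.12, adjusted p = 0.0293), or 1.62-fold and 1.44-fold. Its ebs call was lost without ebs arrays 1 or 3 or wild type array 2 (highest adjusted p = 0.0635), and its shl-2 call without any 1 of the wild type arrays, shl-2 array 1 or shl-2 array 3 (highest adjusted p = 0.104).

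The other 3 CSLC genes did not pass. CSLC6 read 7.15 to 7.19 in wild type, 7.02 to 7.17 in ebs and 7.17 to 7.24 in shl-2. CSLC08 had log2 fold changes of -0.21 and -0.05, and CSLC12, with a dim probe set, -0.08 and 0.23. Among the 5 genes, 1 therefore rose and 1 fell in shl-2, beside 2.44% and 2.99% of all probe sets, and 1 fell in ebs, beside 1.47%. CSLD2, of a family needed for tip growth of root hairs, read 6.82, 6.88 and 7.19 in wild type, 7.25, 7.25 and 7.35 in the ebs mutant, and 7.5, 7.25 and 7.33 in the shl-2 mutant. Mutant and wild type arrays did not overlap, but the values of 0.32 in ebs (limma adjusted p = 0.154) and 0.40 in shl-2 (adjusted p = 0.0651) did not pass. The shl-2 value passed without wild type array 3 (adjusted p = 0.0211) and with array weights (adjusted p = 0.0441).

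**Figure D2:**
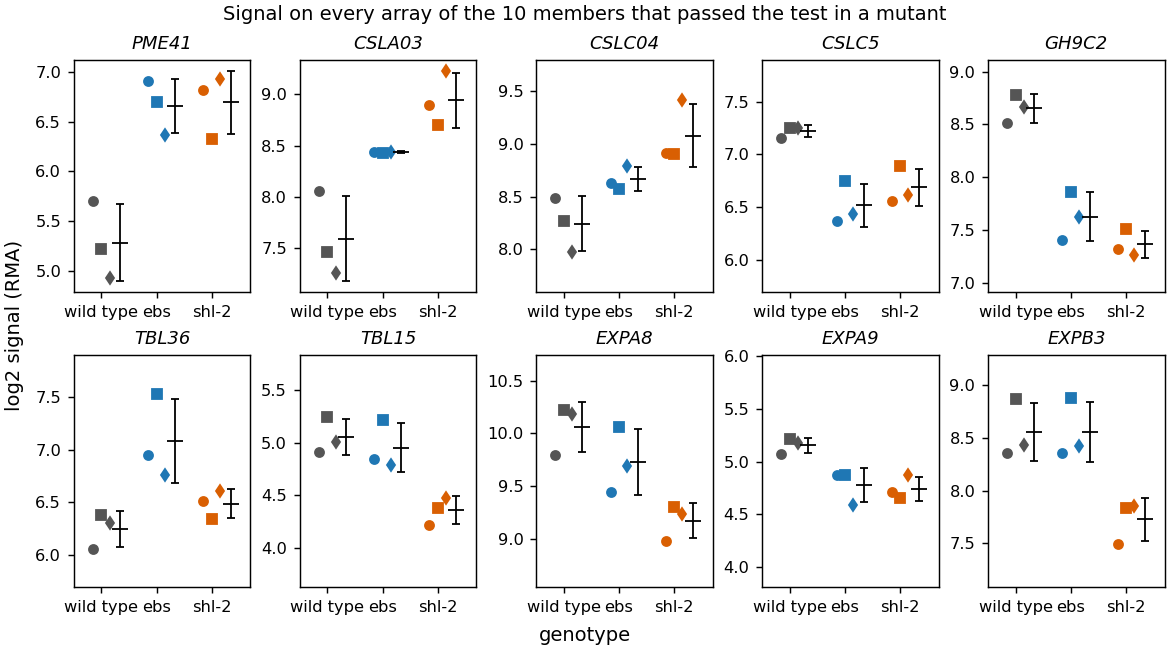
Log2 signals on all 9 arrays are drawn for the 10 members that passed in at least 1 mutant, with circles, squares and diamonds for arrays 1, 2 and 3 and the mean ± SD of each genotype beside them. The vertical axis differs between panels. PME41, CSLA03, CSLC5 and GH9C2 are shifted in both mutants, for example from 8.51 to 8.78 in wild type to 7.26 to 7.51 in shl-2 for GH9C2.

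None of the 14 expansin genes passed in ebs, beside 3.19% of all probe sets. In shl-2, 3 fell and none rose, beside 2.99% of all probe sets that passed as lower. EXPA8 (AT2G40610), an alpha-expansin with the brightest probe set of the group, read 9.79, 10.22 and 10.18 in wild type, 9.44, 10.06 and 9.69 in the ebs mutant, and 8.98, 9.3 and 9.23 in the shl-2 mutant. The shl-2 arrays lay below the other 6, and ebs overlapped wild type. EXPA8 fell by 0.89 on the log2 scale in shl-2 (SE 0.17, limma adjusted p = 0.0126), or 1.86-fold, and had a value of -0.33 in ebs (adjusted p = 0.352). EXPB3 (AT4G28250), a beta-expansin, read 8.36, 8.87 and 8.43 in wild type, 8.36, 8.88 and 8.42 in the ebs mutant, and 7.49, 7.84 and 7.85 in the shl-2 mutant. Wild type and ebs covered nearly the same range, and shl-2 lay below both. EXPB3 fell by 0.83 in shl-2 (SE 0.17, adjusted p = 0.0225), or 1.77-fold, and its value in ebs was 0.0 (95% interval -0.39 to 0.39). The calls of EXPA8 and EXPB3 in shl-2 were both lost without shl-2 array 1 or wild type arrays 2 or 3, with highest adjusted p of 0.0615 and 0.0843.

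EXPA9 (AT5G02260) read 5.07, 5.21 and 5.18 in wild type, 4.87, 4.87 and 4.59 in the ebs mutant, and 4.71, 4.65 and 4.87 in the shl-2 mutant. All mutant arrays lay below wild type. Its log2 fold change was -0.41 in shl-2 (SE 0.10, limma adjusted p = 0.0394) and -0.38 in ebs (SE 0.10, adjusted p = 0.0731). The shl-2 call did not hold with the replicate number as a block (adjusted p = 0.0624), nor with arrays centred on their medians (0.0575) or quantile normalized again (0.0505), nor with a trended variance (0.0591), nor in 6 of 9 leave-one-out fits, those omitting wild type 1, 2 or 3, ebs 1, or shl-2 1 or 2 (highest adjusted p = 0.133).

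The remaining expansins did not pass in either mutant, with log2 fold changes of -0.72 to 0.12 among the 11 in shl-2. EXPA4 read 7.42, 7.87 and 8.05 in wild type, 8.22, 8.77 and 8.1 in the ebs mutant, and 7.39, 7.46 and 7.52 in the shl-2 mutant. Its ebs arrays were the 3 highest of the 9, and its shl-2 arrays overlapped wild type. EXPB1 had the widest spread within genotypes of all members, a pooled SD of 0.47, and read 5.51, 6.03 and 6.3 in wild type and 4.81, 5.07 and 5.81 in shl-2 (log2 fold change -0.72, adjusted p = 0.237). EXPA15 had values of 0.39 in ebs and -0.11 in shl-2. EXPA7 and EXPA18, which act in root hairs, had log2 fold changes of 0.20 and 0.24 in ebs, and in shl-2 of 0.01 and 0.05. EXPA16, EXPA21, EXPA24 and EXPB5 had mean signals below the lower quartile and log2 fold changes between -0.04 and 0.08 in both mutants. Of the 3 measured root markers, PYK10 had log2 fold changes of 0.29 and 0.21, AGL21 had 0.35 and 0.32, and AGL42 had 0.11 and 0.15, in ebs and shl-2 respectively. None of these passed, and AGL21 and AGL42 had mean signals below the lower quartile. AGL21 was higher without overlap in both mutants and PYK10 in ebs, and the other values overlapped wild type. The part of these root markers in the expansin values was not tested.

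**Figure D3:**
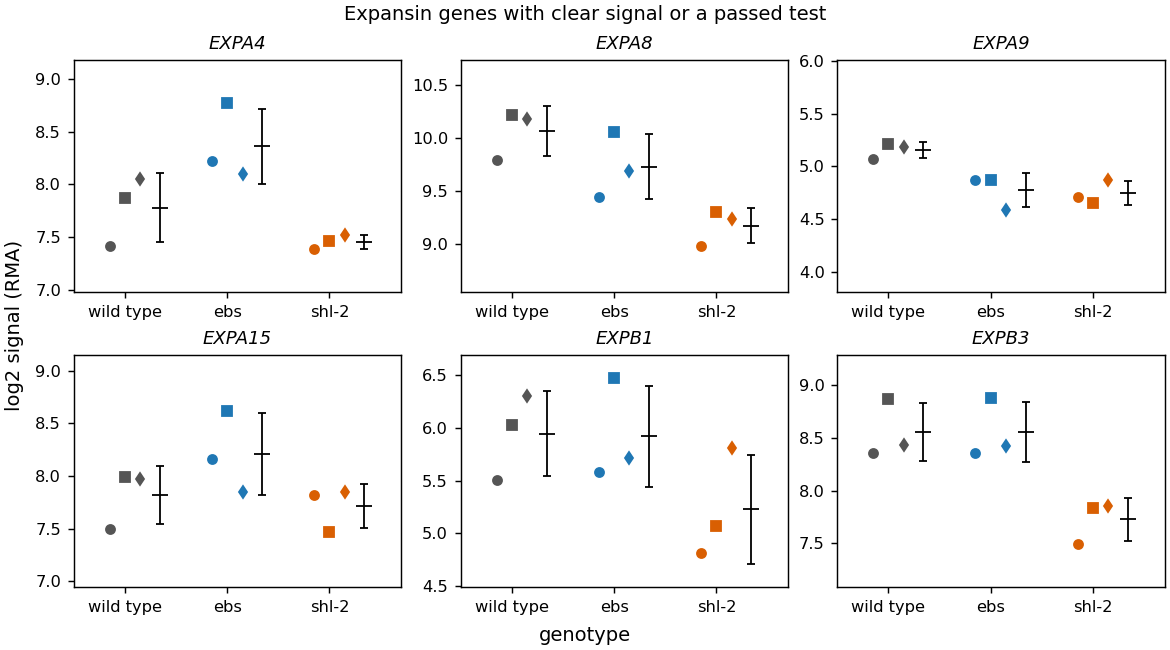
Log2 signals of 6 expansin genes are drawn for each array, with circles, squares and diamonds for arrays 1, 2 and 3 and the mean ± SD beside them. The vertical axis differs between panels. EXPA8 and EXPB3 lie lower in shl-2 than on all other arrays, EXPA9 lies lower in both mutants, and EXPA4 in shl-2 spans 7.39 to 7.52 against 8.1 to 8.77 in ebs.

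The TBL (trichome birefringence-like) genes encode a family with acetyltransferases that decorate xylan, mannan, xyloglucan and pectin. Of the 23 measured, 1 rose in ebs and 1 fell in shl-2, and these were different genes. That is 4.35% of the TBL genes in each mutant, near the 3.19% of all probe sets that passed in ebs and the 5.43% in shl-2. TBL36 (AT3G54260) read 6.06, 6.38 and 6.3 in wild type, 6.95, 7.53 and 6.76 in the ebs mutant, and 6.51, 6.34 and 6.61 in the shl-2 mutant. The ebs arrays lay above the other 6, and shl-2 overlapped wild type. TBL36 rose by 0.83 on the log2 scale in ebs (SE 0.18, limma adjusted p = 0.036), or 1.78-fold, and its value in shl-2 was 0.24 (adjusted p = 0.532). The call was lost in 6 of the 9 leave-one-out fits, those omitting wild type 1, 2 or 3, ebs 1, or shl-2 1 or 2 (highest adjusted p = 0.0919), and when the shl-2 arrays were kept out of the fit (adjusted p = 0.0775).

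TBL15 (AT2G37720) read 4.91, 5.24 and 5.01 in wild type, 4.85, 5.22 and 4.79 in the ebs mutant, and 4.22, 4.38 and 4.48 in the shl-2 mutant. Only the shl-2 arrays were low. TBL15 fell by 0.69 on the log2 scale in shl-2 (SE 0.13, limma adjusted p = 0.0129), or 1.62-fold, and had a value of -0.10 in ebs (adjusted p = 0.765). The call was lost without shl-2 array 1 or wild type array 2 (highest adjusted p = 0.0581).

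TBL23, TBL25 and TBL26 acetylate mannan, the class of polymer that CSLA enzymes make. None of them passed. TBL25 read 9.32 to 9.54 in wild type and 9.55 to 9.77 in shl-2 without overlap (log2 fold change 0.25, limma adjusted p = 0.204). TBL26 read 7.39, 6.44 and 6.74 in wild type, 6.62, 6.53 and 6.27 in the ebs mutant, and 6.09, 6.24 and 6.05 in the shl-2 mutant, with all shl-2 arrays below the other 6. Its value of -0.73 in shl-2 did not pass (adjusted p = 0.0709), but did so with the replicate number as a block (adjusted p = 0.0488) and without wild type array 2 (adjusted p = 0.0315). TBL28, TBL30, TBL32, TBL34 and TBL35, which belong with enzymes that acetylate xylan, had log2 fold changes between -0.13 and -0.01 in ebs and between -0.17 and 0.04 in shl-2. By its type, the probe set for TBL32 may also detect transcripts of similar sequence.

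Other TBL genes stayed within -0.38 to 0.49 in ebs. The upper end of that range was TBL40, whose 2 probe sets gave 0.49 and 0.47 (limma adjusted p = 0.102 and 0.117), and whose ebs arrays at 7.03 to 7.2 lay above wild type at 6.43 to 6.76. The brighter TBL40 probe set passed without shl-2 array 3 (adjusted p = 0.0408) and with array weights (adjusted p = 0.0452). The lower end was shared by TBL26 and TBL41, and the 3 TBL41 arrays of ebs, at 5.55 to 5.78, lay below the other 6 (log2 fold change -0.38, adjusted p = 0.0757). TBL37 varied between arrays of one genotype more than between genotypes, with 8.49, 7.87 and 7.78 in wild type and 8.29, 7.3 and 8.08 in ebs.

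The 3 genes of xylan synthesis, which is most active in secondary walls, did not pass. IRX10 (symbol GUT2), for a subunit of the xylan backbone synthase, read 5.82, 5.78 and 5.84 in wild type, 5.48, 5.77 and 5.75 in the ebs mutant, and 5.61, 5.77 and 5.91 in the shl-2 mutant, with a log2 fold change of -0.15 in ebs (limma adjusted p = 0.52). IRX15 and IRX15-L, which affect xylan chain length, had values between -0.06 and 0.11 in the mutants, and the signals of IRX15-L ran from 4.8 to 5.24 over all arrays. The 95% interval of IRX15-L in shl-2 ran from -0.16 to 0.38. Several members are direct neighbours on a chromosome, namely TBL28 and TBL30, TBL19 and TBL21, GH9B11 and GH9B12, and GH9B16, GH9B17 and GH9B18. None of these 9 genes passed, and their log2 fold changes lay between -0.13 and 0.11 in ebs and between -0.17 and 0.09 in shl-2. The splicing factor genes PRP39 and PRP39-2 differed by at most 0.06 on the log2 scale from wild type.

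**Figure D4:**
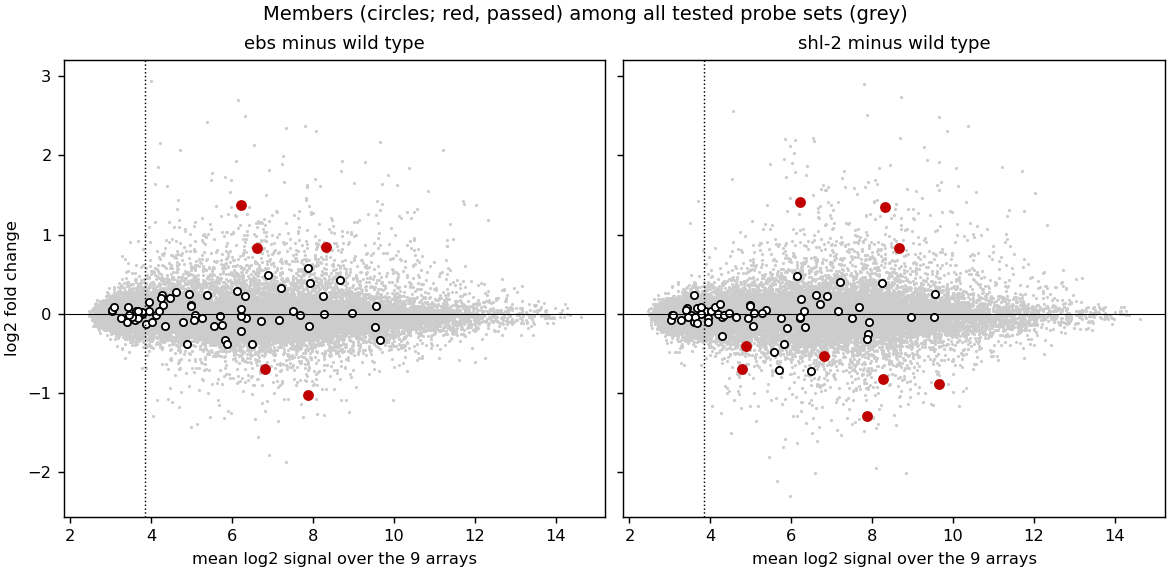
The log2 fold change is plotted against the mean log2 signal over the 9 arrays for all 22746 probe sets (grey) and the 69 members (circles, red where the test was passed). The dotted line marks the lower quartile of mean signals, 3.86. The 15 members left of it have log2 fold changes between -0.12 and 0.23 in both mutants, and none of them passed.

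Wall genes outside the rule were taken from 4 further lists with 140 names, for secondary wall regulators, lignin synthesis, other wall synthesis and remodelling, and wall sensing. Of these, 10 genes were named by a probe set, and none of the 32 secondary wall regulators was. THE1 alone passed, and it was higher in both mutants. This 1 gene of 10 stands beside 1.72% of all probe sets that passed as higher in ebs and 2.44% in shl-2. THE1 (AT5G54380) encodes THESEUS1, a receptor kinase that senses defects of the wall and restrains growth when cellulose is short. It read 6.69, 6.74 and 6.75 in wild type, 7.66, 7.56 and 7.64 in the ebs mutant, and 8.28, 7.98 and 8.67 in the shl-2 mutant. The genotypes did not overlap, with wild type lowest and shl-2 highest. THE1 rose by 0.89 on the log2 scale in ebs (SE 0.14, limma adjusted p = 0.0098) and by 1.58 in shl-2 (SE 0.14, adjusted p = 0.000305). The difference between the mutants was 0.69 (95% interval 0.37 to 1.01, adjusted p = 0.0653). The ebs call was lost without ebs array 1 (adjusted p = 0.0508).

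The other 9 genes of these lists did not pass in any comparison. The related receptor kinase gene FER had log2 fold changes of 0.10 in ebs and 0.34 in shl-2 (limma adjusted p = 0.73 and 0.152). COB, which orients cellulose deposition, had -0.22 and -0.01, and the lignin synthesis gene HCT had -0.26 and -0.20. The lignin genes CCR2, PRX52 and PRX72 had values between -0.26 and 0.34. ADPG1, ANX1 and ANX2, known from organ separation and pollen tubes, had values between -0.09 and 0.10. Their mean signals lay below the lower quartile of all probe sets, which limits what they can show.

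Setting shl-2 directly against ebs tested where the mutants differed. No member passed, with a lowest adjusted p of 0.0555. Before adjustment, p was under 0.05 for 14 members, or 20.3%, beside 10.7% of all probe sets. Arrays of the mutants did not overlap for 14 members, 20.3%, beside 14.0% of all probe sets. In 5 of these shl-2 was higher and in 9 it was lower, beside 6.85% and 7.13% of all probe sets. Log2 fold changes of shl-2 minus ebs were above 0 for 29 members, beside 48.0% of all probe sets. The lowest p belonged to TBL43, which read 4.59, 4.51 and 4.49 in ebs against 4.11, 4.07 and 3.84 in shl-2, a log2 fold change of -0.52 (limma, 95% interval -0.75 to -0.29). EXPA4 had the lowest value, -0.91 (interval -1.33 to -0.49, adjusted p = 0.0667), and EXPB3 had -0.83 (interval -1.21 to -0.44, adjusted p = 0.0685). TBL15 and TBL36 both had -0.59 (adjusted p = 0.082 and 0.217) and EXPA8 had -0.56 (adjusted p = 0.218). The intervals of these 6 genes exclude 0 but are not adjusted for the number of genes. In this fit, passing in one mutant alone was thus not accompanied by a called difference between the mutants for TBL15, TBL36, EXPA8, EXPA9, EXPB3 or CSLC04. EXPA4 and TBL43 passed without wild type array 1 (adjusted p = 0.0427 and 0.0355). With array weights EXPA4, TBL15 and TBL43 passed. TBL43 also passed with arrays centred on their medians and with a robust variance.

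Intervals for the genes that passed in both mutants, and for CSLC04, which passed in shl-2, show how alike the responses could be. The difference between shl-2 and ebs was 0.03 for PME41 (95% interval -0.45 to 0.52), 0.17 for CSLC5 (interval -0.09 to 0.43) and -0.26 for GH9C2 (interval -0.54 to 0.01). For CSLA03 and CSLC04 the intervals, 0.08 to 0.93 and 0.05 to 0.77, lay above 0, with adjusted p of 0.356 and 0.376 in limma's fit.

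**Figure D5:**
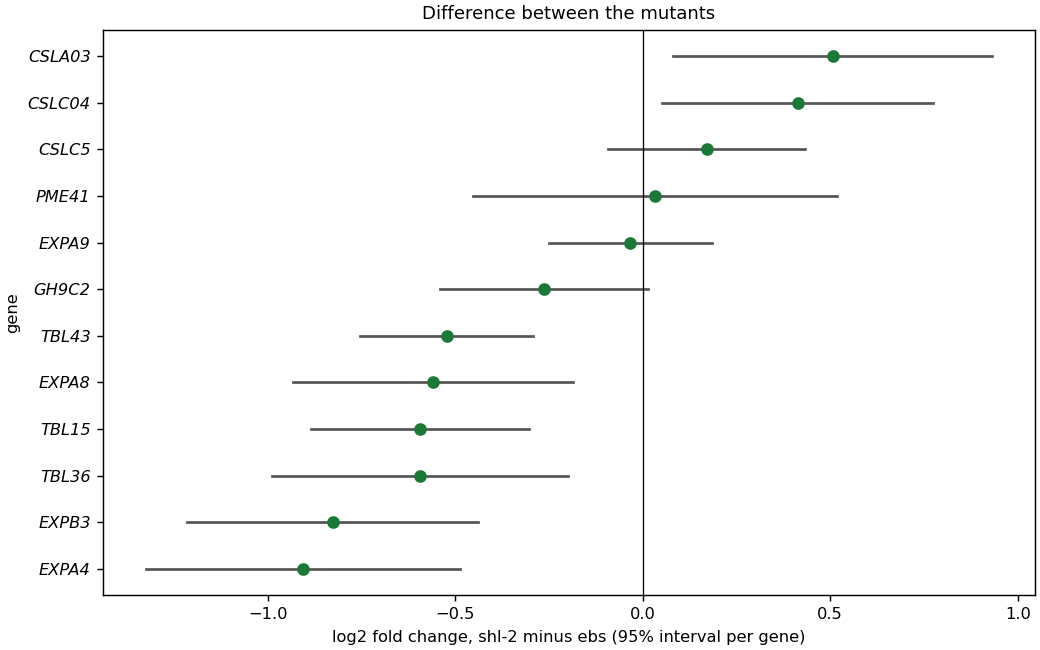
Points give the log2 fold change of shl-2 minus ebs and lines its 95% interval, for the 10 members that passed in a mutant and for EXPA4 and TBL43. Positive values are higher in shl-2. Values run from -0.91 for EXPA4 to 0.51 for CSLA03, and none passed after adjustment over all probe sets.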

How the data were processed

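The authors deposited log2 signals per probe set for 9 arrays. The submitters' processing notes name RMA and the affy package, without versions or a genome build, so no coordinates are printed. Among 22810 probe sets, 64 were AFFX controls. The other 22746 were tested with no filter on low signals, and 13513 of them named 1 gene, 503 several, and 8730 were unnamed here. Gene names were updated through Entrez identifiers to RefSeq (TAIR10.1).

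With limma 3.58.1 in R 4.3.3, 1 mean per genotype was estimated from the 9 arrays together (lmFit, contrasts.fit, eBayes), and tested two-sided, with the Benjamini-Hochberg adjustment made over 22746 probe sets for each comparison and a threshold of 0.05. SE denotes the moderated standard error, and intervals are 95% and unadjusted. The fit was tested on simulated data with known changes. Members and lists were chosen with earlier results of these data known.

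The rule for named genes took members that passed in a comparison, the member of highest mean and of lowest p in each role group, CESA genes (none had a named probe set) and genes of the other wall lists that passed. Further genes given with values, among them TBL26, CSLD2, EXPA4, TBL40, TBL41 and GH9A3, were chosen after their values were seen.

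Replicate numbers recur in each genotype. Deviations from genotype means on same-numbered shl-2 and wild type arrays correlated across probe sets with r = 0.405, 0.212 and 0.171, so these arrays were taken as paired, and for this comparison the blocked value stands beside a result where it changes the call. Same-numbered ebs and wild type arrays gave r = 0.271, 0.46 and -0.108, and shl-2 and ebs arrays gave 0.228, 0.156 and -0.285. Because the lowest r was negative in each, these arrays were not taken as paired. Their blocked values are given only with the other alternatives. The block was fitted to the arrays of all genotypes together. Blocked values for shl-2 against wild type therefore also rest on the ebs replicate numbers, although ebs arrays were not taken as paired. The main counts and adjusted p for shl-2 against wild type come from the fit without the block. Alternatives were that block, median centring, a second quantile normalization, leaving out the dimmest 30%, a trended or a robust variance, array weights, fitting 2 genotypes only, the dimmer probe set of a gene, names beginning with AT, stricter thresholds, and leaving out each array.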

Additional observations from a re-analysis of the deposited data

How the results depend on the processing

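GH9C2 in both mutants, and PME41 and CSLA03 in shl-2, passed under every alternative run. No direction reversed for any gene recomputed. With the replicate number as a block, 5 members passed in ebs (898 probe sets), 9 in shl-2 (1402) and 4 between the mutants (248): EXPA4, EXPA8, EXPB3 and TBL15, with adjusted p of 0.0427, 0.0276, 0.00875 and 0.0359. Of the 10 other wall genes, 1 passed between the mutants with the block and without shl-2 array 2. The block changed no other call of a member than these and those of EXPA9 and TBL26 in shl-2. Array weights gave 6 members in ebs (with TBL40), 10 in shl-2 (with CSLD2) and 3 between the mutants (EXPA4, TBL15 and TBL43). The probe sets that passed with these weights were 1129 in ebs, 1330 in shl-2 and 364 between the mutants. Median centring and the robust variance each gave 1 member between the mutants, TBL43. A fit of the compared genotypes only gave 3 members in ebs (541 probe sets), 9 in shl-2 (837) and none between the mutants (112). At an adjusted p under 0.01, 2 members passed in ebs (212 probe sets), 3 in shl-2 (530) and none between the mutants (51). With a 2-fold minimum, 2 passed in ebs (144), 3 in shl-2 (200) and none between the mutants (45). Leaving out 1 array gave 1 to 6 members in ebs, 4 to 9 in shl-2 and 0 to 2 between the mutants, and 264 to 838, 677 to 1229 and 64 to 190 probe sets. Apart from smaller samples and stricter thresholds by construction, the cause was not tested. Leaving out the PRP39 genes, chosen after seeing the data, changed no count. Dim probe sets limit what 15 members can show.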
